A study of Mus musculus with 11 samples.

Results

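The stereocilia of the inner ear's hair cells (HCs) are rigid protrusions filled with a tightly cross-linked core of parallel actin filaments. Bundling proteins hold the filaments together, a motor and its cargo proteins work at the tips where the filaments grow, and a rootlet anchors each core in the apical surface of the cell. The 10 genes described here, Espn, Fscn1, Fscn2, Eps8, Eps8l2, Pls1, Grxcr1, Xirp2, Myo15 and Triobp, all code for proteins with roles in that core, and most of them are known from mutant mice or families with hearing loss. They were taken by symbol from the tables of expression per cell, which together list 24898 genes. All 10 were listed at E16, P1 and P7. At E14 9 were listed, and Xirp2 was not.

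The cells came from CD1 wild-type mice of either sex. They were dissociated from the epithelial floor of the cochlear duct at embryonic days 14 and 16 and postnatal days 1 and 7 (E14, E16, P1 and P7) and captured with 10x Chromium 3′ chemistry. Each library was an independent collection in which the tissue of several pups or animals was pooled, with 2 libraries at E14, 3 at E16, 4 at P1 and a pair at P7, the latter numbered 4 and 5. No library holds more than 1 age, so age and collection cannot be told apart, and with pooled animals the spread between libraries is that between collections.

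Together the 11 libraries held 30634 cells (1247 to 5598 each, 3828399 to 23523802 unique molecular identifiers, or UMIs, in each library, and a median of 2478 to 5647.5 UMIs per cell). HCs were gated by 12 marker genes (Pou4f3, Myo6, Myo7a, Pvalb and others) that together had to reach 2000 CPM (counts per 1000000 UMIs) in a cell, with at least 4 of the 12 detected. Cells under 1000 CPM with at most 3 detected were the non-HCs. This gave 1949 HCs, 28037 non-HCs and 648 cells in between that were used in neither, and 570 cells lay between 1 and 4 times the 1000 CPM limit. The HCs were typed as inner (IHCs) or outer (OHCs) where at least 2 more of 9 inner than of 10 outer markers were detected, or the reverse. This typed 348 as IHCs and 758 as OHCs and left 843 untyped. All these names mean cells that look like the type by those markers, and none of the 10 genes was among the markers. The markers summed to 9545 to 25567 CPM in the HCs of a library and to 79.5 to 239 CPM in its non-HCs. A list of 6 supporting cell (SC) genes (Epyc, Tecta, Otog, Sparc, Col9a1 and Sox2) summed to 352 to 1369 CPM in HCs and 2779 to 10095 CPM in non-HCs. The median HC of a library held 2455 to 9642 UMIs, and the median non-HC 2516 to 5550 UMIs. At E14 only 42 HCs were found, 13 of them IHCs and no OHC, and 10 of the inner and outer markers are not listed at that age. Atp2a3, Serpina1c and Slc26a5 are not listed at E16, nor are Neurod6 and Serpina1c at P7. Untyped HCs numbered 445 of 584 at E16, 307 of 1057 at P1 and 62 of 266 at P7. At E16 the median untyped HC of a library held 2413 to 3794 UMIs, the median IHC 3048 to 5121.5 and the median OHC 2551 to 4327. The part of this typing in the results for IHCs and OHCs was not tested. P1 replicate 4 stood most apart from the other P1 libraries. Over genes, its HCs correlated with theirs at 0.870 to 0.905, where the other pairs reached 0.927 to 0.975. Among these other pairs, replicate 1 was at 0.930 with replicate 2 and 0.927 with replicate 3, while replicates 2 and 3 were at 0.975. Libraries of the same age shared 5 to 27 cell barcodes per pair, with 3 barcodes gated as HC in both libraries over the 11 pairs.

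The levels below are the mean CPM of a class of cells in 1 library, worked back from the deposited logarithms. Differences are on the scale of log2(CPM + 10), which understates the change of low genes, and each stands with its standard error. They were tested with limma across all genes whose mean over the columns fitted reached 10 CPM, with the library as a block where both classes come from the same libraries, two-sided, and with Benjamini-Hochberg adjustment over all genes tested. A gene is said to differ where the adjusted p was under 0.05.

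The DNA in front of a start site is shown for Espn, Myo15, Fscn2 and Xirp2, 4 of the genes that were higher in HCs from E16 on. It covers the 250 bases before a RefSeq start (build GRCm38.p6), in the direction of transcription. Capitals mark the E-box letters CAGNTG on either strand, the kind of sequence bound by basic helix-loop-helix factors such as Atoh1, which starts the HC program. Windows were found for 9 of the 10 genes, 12 windows in all, and the Espn window shown was chosen among its 3 because it holds the most matches. That window lies within the gene (chr4:152120331-152152371), before an internal start site, and not in front of its 5′ end. The Espn window at the 5′ end (chr4:152152390-152152639) holds 1 match, and the remaining one (chr4:152136326-152136575) holds 0.
Espn, chr4:152128926-152129175, minus strand: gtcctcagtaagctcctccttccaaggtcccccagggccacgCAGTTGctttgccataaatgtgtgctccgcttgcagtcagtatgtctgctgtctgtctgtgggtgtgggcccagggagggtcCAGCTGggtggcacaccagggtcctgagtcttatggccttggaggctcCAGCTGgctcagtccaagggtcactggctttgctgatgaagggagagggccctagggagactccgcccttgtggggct
Myo15, chr11:60469089-60469338, plus strand: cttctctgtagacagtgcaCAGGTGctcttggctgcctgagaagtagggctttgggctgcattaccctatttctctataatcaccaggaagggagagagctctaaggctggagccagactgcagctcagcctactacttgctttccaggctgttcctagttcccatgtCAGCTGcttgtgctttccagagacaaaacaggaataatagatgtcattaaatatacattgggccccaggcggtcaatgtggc
Fscn2, chr11:120361284-120361533, plus strand: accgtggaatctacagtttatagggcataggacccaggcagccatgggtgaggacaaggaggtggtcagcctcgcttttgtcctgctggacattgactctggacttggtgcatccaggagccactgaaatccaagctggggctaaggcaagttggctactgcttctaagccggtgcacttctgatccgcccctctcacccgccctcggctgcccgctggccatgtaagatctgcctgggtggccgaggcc
Xirp2, chr2:67445752-67446001, plus strand: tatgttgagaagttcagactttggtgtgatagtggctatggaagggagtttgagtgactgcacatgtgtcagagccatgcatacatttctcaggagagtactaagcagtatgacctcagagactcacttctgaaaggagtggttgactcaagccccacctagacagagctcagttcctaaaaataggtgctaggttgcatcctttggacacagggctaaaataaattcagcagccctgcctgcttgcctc
The Espn window shown holds 3 matches, which start 208, 126 and 78 bases before its internal start site. The Myo15 window holds 2, at 231 and 82 bases. The windows of Fscn2 and Xirp2 hold none. Among the windows not shown, that of Grxcr1 holds none and that of Eps8l2 holds 2. Of the 12 windows, 6 hold a match. These windows belong to 5 of the 9 genes, a count without a background here, since Espn and Triobp have more than 1 window each. Over all 32851 windows of the same length, 44.8% hold CAGNTG on either strand and 13.0% hold CAGCTG, which is one form of it and reads the same on both strands. The libraries count the 3′ ends of transcripts and do not tell which start site was used.

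Most of the core genes were higher in HCs than in non-HCs from E16 on. The group of core genes that differed grew between E14 and P1, and so did the share of all genes that differed. HCs numbered 42 in 2 libraries at E14 and 1057 in 4 libraries at P1. The part of these numbers in the growth was not tested. At E14 4 of the 10 genes were higher in HCs and none was lower, where 10.3% of all 9317 genes tested were higher and 18.1% lower. At E16 7 were higher and 1 lower, against 18.6% and 18.9% of all genes. At P1 8 were higher and 2 lower, against 34.3% and 26.1% of all genes. At P7 8 were higher and 1 lower, against 29.2% and 25.7% of all genes. The median difference of the 10 genes went from 0.66 at E14 over 2.23 at E16 and 3.16 at P1 to 3.41 at P7, beside -0.10, -0.01, 0.09 and 0.07 for all genes tested. The genes higher in HCs at all 4 ages were Espn, Eps8l2, Triobp and Grxcr1. Fscn2 and Myo15 joined them at E16, where Xirp2, entered as 0 at E14, was higher too, and Fscn1 was the gene lower in HCs from E16 on.

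**Figure D1:**
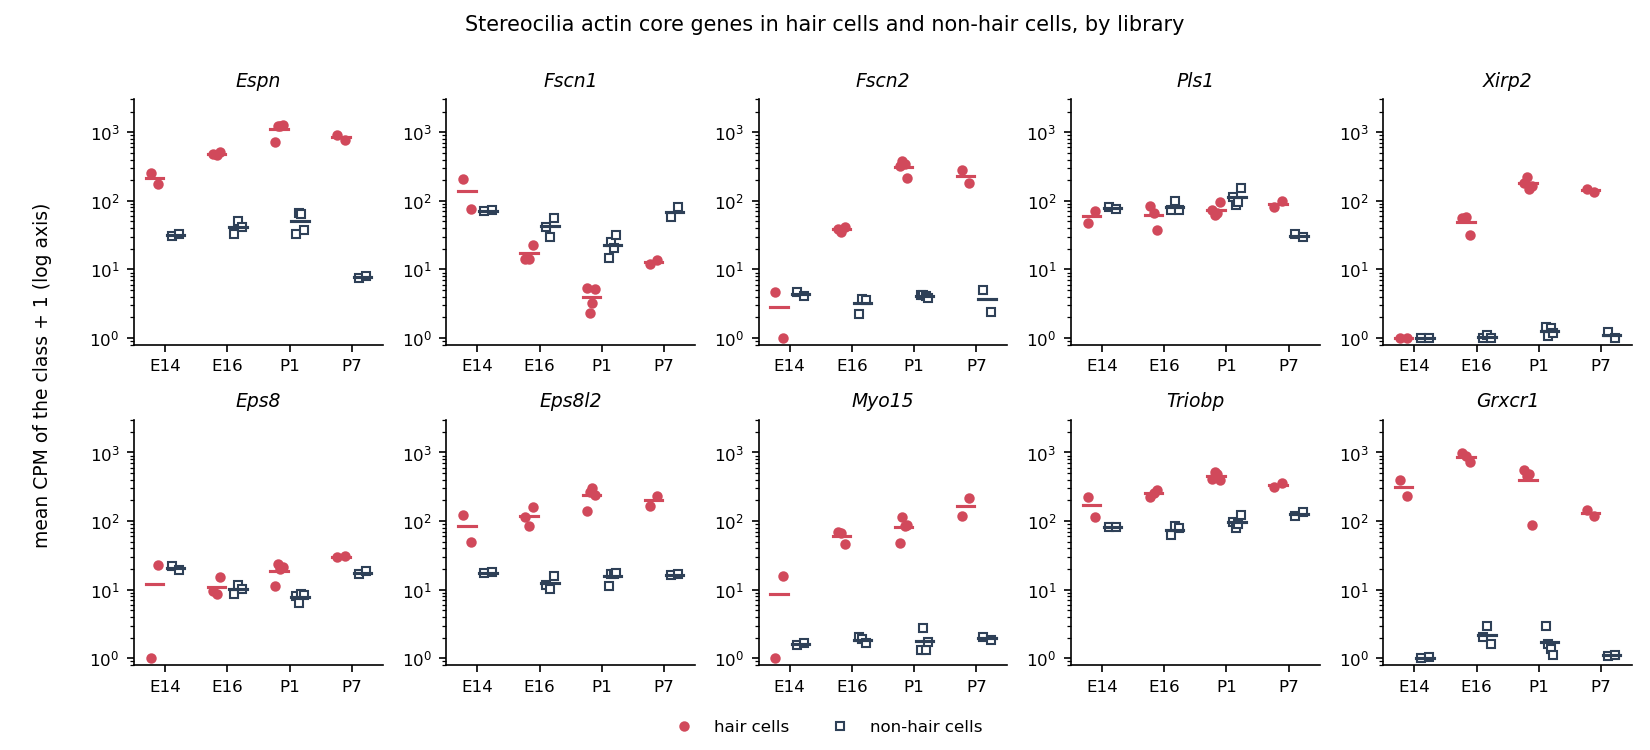
Mean level of each of the 10 genes in HCs and in non-HCs, as mean CPM + 1 on a log axis, with 1 point for each library by age and a bar for the mean over libraries. Grxcr1, Fscn2, Xirp2 and Myo15 stay at or under 4.1 CPM in the non-HCs of every library, while the HCs of P1 and P7 lie above 40 CPM for all 4. Xirp2 is not listed at E14 and is drawn there at 0 + 1.

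Among the bundling proteins, Espn, which codes for espin and lies at chr4:152120331-152152371 on the minus strand (mm10), was the most widely detected of the 10 genes in HCs at P1 and P7. Its level in HCs was 253 and 176 CPM at E14, 475, 463 and 522 CPM at E16, 725, 1231, 1239 and 1275 CPM at P1 and 923 and 757 CPM at P7. In non-HCs it was 30.1 and 32.2 CPM at E14, 31.7, 49.6 and 41.0 CPM at E16, 31.9, 65.5, 63.7 and 36.1 CPM at P1 and 6.51 and 7.01 CPM at P7. The HCs of every library lay above its non-HCs, and the 4 P1 libraries held the HC levels of both P7 libraries within their range. For E14, E16, P1 and P7 in turn, the ratio of the means was 6.89, 11.9, 22.7 and 124. On the log2 scale Espn was higher in HCs by 2.43 ± 0.20 (SE, adjusted p = 1.05e-07) at E14 and 3.31 ± 0.17 (SE, adjusted p = 6.28e-11) at E16. The difference was 4.26 ± 0.14 (SE, adjusted p = 1.02e-13) at P1 and 5.66 ± 0.20 (SE, adjusted p = 7e-13) at P7.

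The Espn difference itself was larger at each age than at the one before, and each step was lost under 1 or more alternatives. It was larger at E16 than at E14 by 0.88 ± 0.26 (SE, adjusted p = 0.0336), a step that missed the threshold in 9 of 24 alternatives, among them without E14 replicate 2, at 0.59 (adjusted p = 0.163), without E16 replicate 1, at 0.76 (adjusted p = 0.113), and without E16 replicate 3, at 0.84 (adjusted p = 0.0867). It was larger at P1 than at E16 by 0.96 ± 0.22 (SE, adjusted p = 0.00548) and at P7 than at P1 by 1.39 ± 0.25 (SE, adjusted p = 0.000426). The step from E16 to P1 missed the threshold without the library block, at an adjusted p of 0.0841, and the step from P1 to P7 with a pseudocount of 50 CPM, at 0.42 (adjusted p = 0.121). The last step came with a fall in non-HCs, from 49.3 ± 17.8 (SD, n = 4) CPM to 6.76 ± 0.352 (SD, n = 2) CPM, while the HC level went from 1117 ± 262 (SD, n = 4) CPM to 840.0 ± 117 (SD, n = 2) CPM. Between E14 and E16 Espn rose in HCs by 1.16 ± 0.27 (SE, adjusted p = 0.00883), and between E16 and P1 by 1.15 ± 0.23 (SE, adjusted p = 0.00208). The first rise missed the threshold without E14 replicate 2, at 0.91 (adjusted p = 0.0673). With each cell thinned to 1500 UMIs, 77.8% ± 8.88 (SD, n = 4) of the P1 HCs held an Espn UMI, against 6.44% ± 2.22 of the non-HCs.

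Fscn2, the fascin best known from photoreceptors and HCs, lies at chr11:120361534-120368168 on the plus strand. It was close to 0 in HCs at E14, at 3.72 and 0 CPM, and reached 38.4, 34.4 and 40.2 CPM at E16, 323, 376, 342 and 213 CPM at P1 and 282 and 178 CPM at P7. The 3 E16 libraries lay close together, all of them above both E14 libraries and below the 4 P1 libraries. Non-HCs held 1.24 to 4.05 CPM over all 11 libraries, so the HC rise had no counterpart there. Fscn2 did not differ at E14, with -0.20 ± 0.23 (SE, adjusted p = 0.556) and a 95% interval of -0.69 to 0.29. It was higher in HCs by 1.97 ± 0.19 (SE, adjusted p = 1.96e-07) at E16, 4.60 ± 0.16 (SE, adjusted p = 1.9e-13) at P1 and 4.21 ± 0.23 (SE, adjusted p = 1.37e-10) at P7. In HCs it rose by 2.02 ± 0.31 (SE, adjusted p = 0.000443) between E14 and E16 and by 2.74 ± 0.26 (SE, adjusted p = 2.2e-06) between E16 and P1. The rise of the difference between HCs and non-HCs was of like size, 2.17 ± 0.30 (SE, adjusted p = 0.000276) and 2.63 ± 0.25 (SE, adjusted p = 3.73e-06).

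Fscn1, the fascin of filopodia and other cell protrusions, lies at chr5:142960343-142973185 on the plus strand and went the other way. Its HC level was 204 and 75.2 CPM at E14, 13.3, 13.2 and 21.9 CPM at E16, 4.27, 1.34, 2.23 and 4.16 CPM at P1 and 11 and 12.8 CPM at P7. Both E14 libraries were above every later one, and the 4 P1 libraries were the lowest. In non-HCs it was 69.9 and 71.6 CPM at E14, 40.1, 28.6 and 55.4 CPM at E16, 13.5, 24.1, 19.6 and 30.3 CPM at P1 and 56.9 and 80.1 CPM at P7. At E14 the HC level was above that of the non-HCs in both libraries, with a difference of 0.74 ± 0.29 (SE, adjusted p = 0.0625) that missed the threshold. It passed the threshold without E14 replicate 2, at 1.42 (adjusted p = 0.00203). From E16 on Fscn1 was lower in HCs, with a log2 difference of -0.96 ± 0.23 (SE, adjusted p = 0.0034) at E16, -1.27 ± 0.20 (SE, adjusted p = 3.21e-05) at P1 and -1.82 ± 0.29 (SE, adjusted p = 3.87e-05) at P7.

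In HCs Fscn1 fell, with a log2 change of -2.39 ± 0.37 (SE, adjusted p = 0.000446) between E14 and E16. The E16 difference between HCs and non-HCs was lower than that of E14, with a log2 difference of -1.70 ± 0.37 (SE, adjusted p = 0.00634). Without E14 replicate 1, the HC library with the higher level, this change was -1.02 (adjusted p = 0.063). The further change in HCs between E16 and P1, -1.0 ± 0.31 (SE, adjusted p = 0.036), fell short of the threshold in 12 of 21 alternatives, which include leaving out any 1 E16 library, any 1 P7 library, and P1 replicate 2, 3 or 4. With a pseudocount of 50 CPM it was -0.32 (adjusted p = 0.242). The adjusted p was 0.0501 without P1 replicate 4 and 0.129 without E16 replicate 3. The list of 6 SC genes summed to 977 to 1369 CPM in the HCs of E14, 517 to 829 CPM in those of E16, 352 to 886 CPM in those of P1 and 1063 to 1179 CPM in those of P7. Their sum was thus higher at E14 than at E16. A list of 7 stress and immediate early genes (Fos, Jun, Junb, Egr1, Atf3, Hspa1a and Hspa1b) summed to 1731 to 2566 CPM in the HCs of E14, 746 to 863 CPM at E16, 431 to 1571 CPM at P1 and 2808 to 5339.6 CPM at P7. The HCs of E14 were thus above those of E16 and P1 in this list too, and those of P7 were the highest. The part of either list in the fall of Fscn1 was not tested.

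Pls1, which codes for plastin, also called fimbrin, and lies at chr9:95752642-95845311 on the minus strand, was at a similar level in HCs at all ages. It was 46.8 and 69.7 CPM at E14, 81.7, 64.6 and 36.4 CPM at E16, 72.0, 61.4, 64.4 and 96.6 CPM at P1 and 81.0 and 99.2 CPM at P7. No change between ages passed the threshold in HCs. In non-HCs it was 80.0 and 76.1 CPM at E14, 71.8, 98.9 and 72.3 CPM at E16, 112, 86.7, 95.8 and 152 CPM at P1 and 32.0 and 28.4 CPM at P7, so the P7 libraries were the lowest. The mix of non-HCs differed too. Glia markers summed to 68.6 to 86.5 CPM in P1 non-HCs and 685 to 2249 CPM in P7 non-HCs. Mesenchyme markers summed to 6.73 to 23.8 CPM at P1 and 387 to 1004 CPM at P7. The part of this mix in the Pls1 levels was not tested. Pls1 was lower in HCs, with a log2 difference of -0.53 ± 0.15 (SE, adjusted p = 0.00694) at P1, where the ranges of the classes overlapped over libraries but HCs were lower within each of the 4. At P7 it was higher in HCs by 1.31 ± 0.22 (SE, adjusted p = 7.23e-05). The change of the difference between P1 and P7 was 1.84 ± 0.27 (SE, adjusted p = 6.8e-05). At E14 and E16 the differences were -0.39 ± 0.22 (SE, adjusted p = 0.2) and -0.40 ± 0.18 (SE, adjusted p = 0.0894), both short of the threshold.

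**Figure D2:**
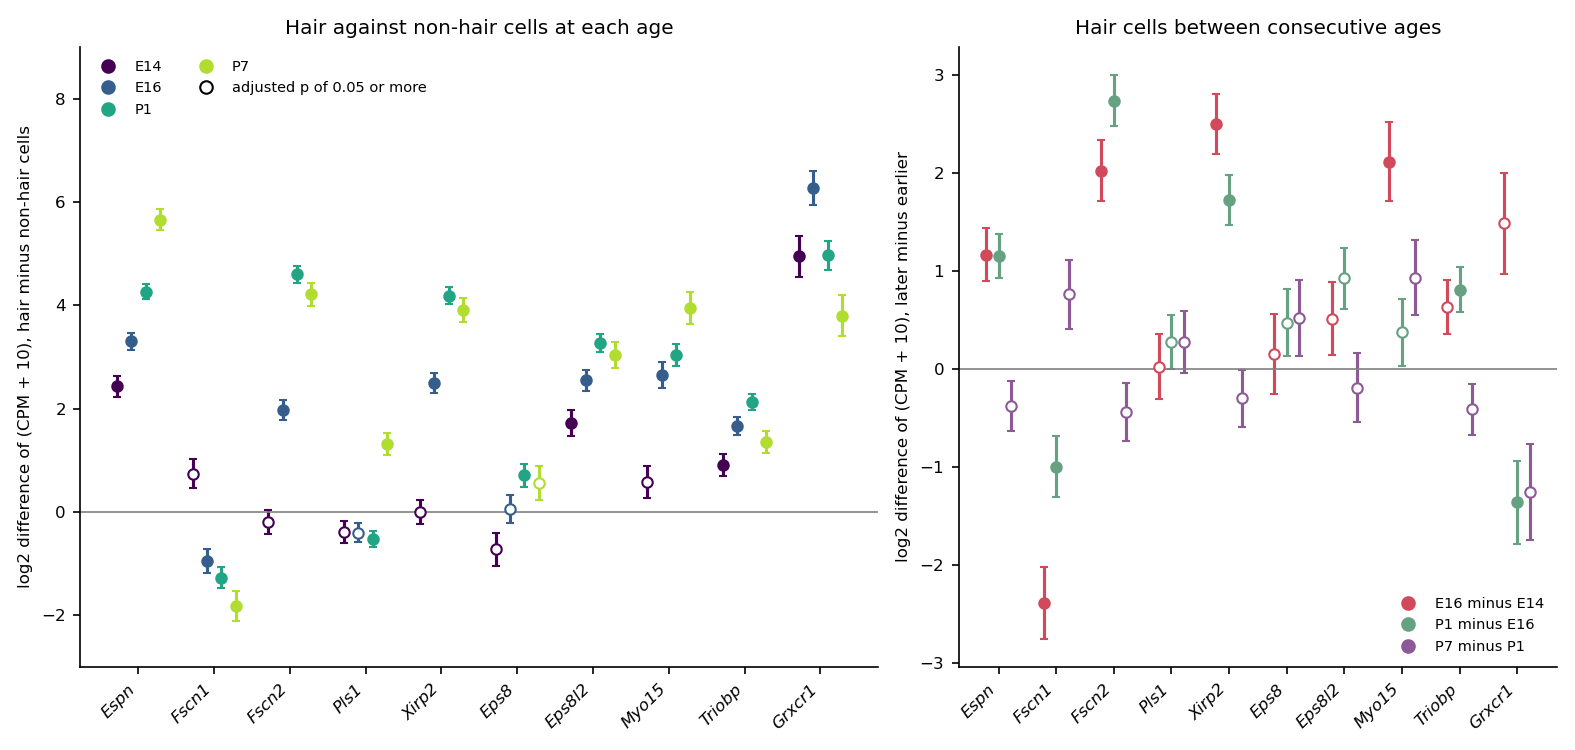
Left, difference between HCs and non-HCs for each gene at each age, as log2(CPM + 10) of HCs minus non-HCs; right, difference within HCs between consecutive ages, later minus earlier, on the same scale, both with the standard error as a bar. Filled points have an adjusted p under 0.05, and open points do not. Espn and Eps8l2 are above 1.5 at every age, Fscn2 goes from near 0 at E14 to above 4 at P1, as does Xirp2, which is not listed at E14 and entered there as 0, and Fscn1 is below 0 from E16 on. On the right no P7 minus P1 point is filled, and Fscn1 and Grxcr1 hold the filled points below 0.

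Xirp2 codes for an actin-binding repeat protein that cross-links filaments, known from muscle and from stereocilia, and lies at chr2:67446002-67526614 on the plus strand. Its HC level was 55.1, 57.8 and 31.1 CPM at E16, 181, 224, 149 and 162 CPM at P1 and 149 and 134 CPM at P7, and the non-HCs held at most 0.47 CPM. Every E16 library was below every P1 library. Xirp2 was higher in HCs by 2.50 ± 0.19 (SE, adjusted p = 1.47e-08) at E16, 4.19 ± 0.17 (SE, adjusted p = 8.69e-13) at P1 and 3.90 ± 0.24 (SE, adjusted p = 4.32e-10) at P7, and it rose in HCs between E16 and P1 by 1.72 ± 0.26 (SE, adjusted p = 0.000158). At E14 the gene is not listed. If the authors' filter of 10 cells was counted over the cells of that age, fewer than 10 of them held a UMI. Xirp2 entered the tests at E14 as 0, which gave a rise of 2.50 ± 0.31 (SE, adjusted p = 7.57e-05) between E14 and E16. In 1 assumed case, 9 E14 HCs with 1 UMI each over the pooled UMIs of the class, the E14 level would be 29.3 CPM and the rise 0.53 (adjusted p = 0.249), so the table does not settle whether Xirp2 rose at this step.

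Of the genes of the stereocilia tips, Myo15 codes for the unconventional myosin that carries cargo to the tips, and lies at chr11:60469339-60528369 on the plus strand. It was 0 and 15.1 CPM in HCs at E14, 67.2, 66.4 and 44.6 CPM at E16, 46.3, 114, 82.4 and 86.0 CPM at P1 and 118 and 213 CPM at P7. The values of 1 E14 library at 0 and of P7 replicate 5 at the top bound the range, and the E16 and P1 libraries overlapped. Non-HCs held 0.323 to 1.81 CPM. The difference was 0.58 ± 0.31 (SE, adjusted p = 0.176) at E14, 2.66 ± 0.25 (SE, adjusted p = 1.72e-07) at E16, 3.04 ± 0.22 (SE, adjusted p = 1.56e-09) at P1 and 3.95 ± 0.31 (SE, adjusted p = 9.82e-09) at P7. Without E14 replicate 1 the E14 difference passed the threshold, at 1.23 (adjusted p = 0.0171). Myo15 rose in HCs between E14 and E16 by 2.11 ± 0.41 (SE, adjusted p = 0.00235). No later step passed the threshold: the change between P1 and P7 was 0.93 ± 0.39 (SE, adjusted p = 0.112), with both P7 libraries above all 4 P1 libraries.

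Eps8l2, a relative of Eps8 found at stereocilia tips, lies at chr7:141338880-141363020 on the plus strand and overlaps B230206H07Rik on the other strand. Its HC level was 121 and 48.8 CPM at E14, 113, 84.5 and 158 CPM at E16, 139.6, 268, 300.0 and 238 CPM at P1 and 167 and 234 CPM at P7. In non-HCs it was 9.39 to 17 CPM over all libraries, and no library's HCs came down to that range. For E14, E16, P1 and P7 in turn, the ratio of the means was 5.09, 10.3, 16.0 and 13.0. Eps8l2 was higher in HCs by 1.72 ± 0.25 (SE, adjusted p = 8e-05) at E14 and 2.55 ± 0.21 (SE, adjusted p = 2.72e-08) at E16. At P1 the difference was 3.27 ± 0.18 (SE, adjusted p = 4.95e-11) and at P7 3.03 ± 0.25 (SE, adjusted p = 2.27e-08). No step between ages passed the threshold in HCs, and the closest was the one from E16 to P1, at 0.93 ± 0.31 (SE, adjusted p = 0.0535), which passed it without E14 replicate 1 or 2, E16 replicate 3 or P1 replicate 1, at adjusted p values between 0.0151 and 0.0437.

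Eps8, which codes for the actin-capping and bundling protein that Myo15 takes to the tips, lies at chr6:137477245-137654876 on the minus strand. It overlaps Gm44106 on the same strand, so its counts are uncertain where the counting could split reads between them. Eps8 was low in all classes: 0 and 22.1 CPM in HCs at E14, 8.46, 7.64 and 14.1 CPM at E16, 10.3, 22.6, 18.9 and 20.3 CPM at P1 and 29.3 and 29.6 CPM at P7. In non-HCs it was 21.0 and 18.3 CPM at E14, 7.72, 10.6 and 9.33 CPM at E16, 7.21, 5.49, 7.67 and 7.35 CPM at P1 and 15.8 and 17.7 CPM at P7. The classes overlapped at E14 and E16, and at P1 and P7 the HCs were above the non-HCs in every library. The P1 difference of 0.71 ± 0.23 (SE, adjusted p = 0.0129) was the only one past the threshold, and it was 0.58 (adjusted p = 0.0809) without P1 replicate 2. At P7 it was 0.56 ± 0.32 (SE, adjusted p = 0.153), with an interval of -0.12 to 1.24, and it passed the threshold without either E14 library, at an adjusted p of 0.035. At E14 Eps8 stood at -0.73 ± 0.32 (SE, adjusted p = 0.102), and without E14 replicate 2 at -1.63 (adjusted p = 0.000707), since the remaining library held no Eps8 UMI in its HCs.

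At the base of the core, Triobp codes for the protein that bundles actin in the rootlet. It lies at chr15:78947724-79005869 on the plus strand, with Mir6956 within it and Gm10865 on the other strand. Its HC level was 222 and 115 CPM at E14, 224, 252 and 286 CPM at E16, 414, 513, 489 and 396 CPM at P1 and 311 and 363 CPM at P7. The non-HCs held 80.2 and 80.8 CPM at E14, 60.8, 83.1 and 77.4 CPM at E16, 94.6, 77.7, 90.4 and 123 CPM at P1 and 117 and 134 CPM at P7. In each library the HCs were higher, but non-HCs were never near 0. Triobp was higher in HCs by 0.91 ± 0.21 (SE, adjusted p = 0.00413) at E14, 1.66 ± 0.17 (SE, adjusted p = 5.99e-07) at E16, 2.13 ± 0.15 (SE, adjusted p = 1.35e-09) at P1 and 1.36 ± 0.21 (SE, adjusted p = 3.89e-05) at P7. Without E14 replicate 1 the E14 difference was 0.46 (adjusted p = 0.21). The difference became smaller between P1 and P7, with a change of -0.77 ± 0.26 (SE, adjusted p = 0.0362). This step missed the threshold in 8 of 24 alternatives, at adjusted p values of up to 0.173. Without P1 replicate 2 or 3 or without either P7 library it was lost at values from -0.79 to -0.63. In HCs Triobp rose between E16 and P1 by 0.81 ± 0.23 (SE, adjusted p = 0.025). This rise was lost in 7 of 22 alternatives, at adjusted p values of up to 0.119. Without E16 replicate 1 or 2 or P1 replicate 2 or 3 it was lost at values of 0.72 to 0.81.

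Grxcr1 codes for a glutaredoxin-like, cysteine-rich protein that sets the dimensions of stereocilia, and lies at chr5:68031835-68166398 on the plus strand. Its HC level was 390.4 and 228 CPM at E14, 967, 887 and 722 CPM at E16, 552, 455, 489 and 86.5 CPM at P1 and 144 and 118 CPM at P7. The E16 libraries were the highest, and P1 replicate 4 lay far below the other 3 P1 libraries and below both P7 libraries. Non-HCs held at most 1.95 CPM. Grxcr1 was higher in HCs by 4.95 ± 0.39 (SE, adjusted p = 6.47e-08) at E14, 6.27 ± 0.32 (SE, adjusted p = 9.73e-11) at E16, 4.96 ± 0.28 (SE, adjusted p = 6.76e-11) at P1 and 3.79 ± 0.39 (SE, adjusted p = 3.37e-07) at P7. The difference between E14 and E16 in HCs was 1.48 ± 0.51 (SE, adjusted p = 0.0597), and it passed the threshold without P1 replicate 4, at 1.48 (adjusted p = 0.00122).

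From E16 to P1 Grxcr1 fell in HCs, with a log2 change of -1.36 ± 0.43 (SE, adjusted p = 0.0393). Without P1 replicate 4 the fall was smaller and still past the threshold, at -0.77 (adjusted p = 0.0328), and without any 1 E16 or P7 library it missed it, at values of -1.48 to -1.27. From P1 to P7 the change was -1.26 ± 0.49 (SE, adjusted p = 0.087), and without P1 replicate 4 it was -1.86 (adjusted p = 7.91e-05). The change of the difference between HCs and non-HCs went the same way, at -1.30 ± 0.43 (SE, adjusted p = 0.0436) from E16 to P1 and -1.17 ± 0.48 (SE, adjusted p = 0.0868) from P1 to P7. The first of these missed the threshold in 12 of 24 alternatives, at adjusted p values of up to 0.215. Without P1 replicate 4 the pair was -0.73 (adjusted p = 0.0516) and -1.74 (adjusted p = 0.000192). Leaving out the P1 library that stood most apart thus made the first fall smaller and the second larger.

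Counted over all 10 genes, 5 differences between HCs and non-HCs changed between E14 and E16 (13.7% of all genes did), 4 between E16 and P1 (17.2%) and 3 between P1 and P7 (26.6%). Within HCs 5 of the 10 changed between E14 and E16 (14.0% of 9182 genes), with Espn, Fscn2, Myo15 and Xirp2 higher and Fscn1 lower. Between E16 and P1 6 changed (14.0%), with Espn, Fscn2, Triobp and Xirp2 higher and Fscn1 and Grxcr1 lower. Between P1 and P7 limma found 0 of 10 past the threshold (16.7% of all genes), and 3 at an unadjusted p under 0.05. That count became 1 without P1 replicate 4, the fall of Grxcr1, and 2 and 1 without E14 replicates 1 and 2. With 9 E14 HCs assumed to hold 1 Xirp2 UMI each, the counts between E14 and E16 are lower by 1. The mitochondrial share of HC UMIs was 0.754% and 1.03% in the E14 libraries and 2.61%, 2.34% and 2.04% in those of E16, so it differed at this step too, and its part in these changes was not tested.

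The share of HCs with at least 1 UMI, after each cell was thinned to 1500 UMIs, gave the same order of ages as the levels for Fscn2, Grxcr1 and Myo15. For Fscn2 it was 0.279% ± 0.394 at E14 and 5.02% ± 0.522 at E16, then 35.2% ± 6.70 at P1 and 24.4% ± 5.81 at P7 (SD over libraries). For Grxcr1 it was 30.2% ± 9.42, 60.2% ± 3.31, 39.0% ± 18.7 and 16.5% ± 1.82 in that order. For Myo15 it was 1.13% ± 1.60, 7.50% ± 0.913, 11.2% ± 3.61 and 20.2% ± 6.66. In non-HCs, thinned alike, the P1 shares were 0.442% ± 0.0327 for Fscn2, 0.110% ± 0.117 for Grxcr1, 0.119% ± 0.105 for Myo15 and 0.0408% ± 0.0278 for Xirp2, against 22.6% ± 3.26 of the HCs for Xirp2. Where the UMIs in non-HCs come from was not tested. With all UMIs of each cell, 97.9% of P1 HCs held Espn, 78.8% Fscn2, 73.2% Grxcr1, 63.3% Xirp2 and 38.9% Myo15.

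Between the HC types, 2 of the core genes differed at P7. IHCs, the main sensory receptors, and OHCs, which amplify sound, carry bundles of different shape. Of the 9 genes that could be tested (Fscn1 was under the filter), 1 differed at E16, where 4.66% of 9135 genes did, and 2 differed at P7, where 2.11% did. At P1 limma found 0 of 9 past the threshold, where 1.84% of all genes passed it, and 2 at an unadjusted p under 0.05, Grxcr1 and Xirp2. Fitted with only the libraries of the age itself, the count was lower at E16 and higher at P1 and P7, as given under the processing below. The classes were small at E16, with 16 to 40 IHCs and 9 to 39 OHCs per library, and 445 of the 584 HCs of that age were left untyped. By the choice of cells the markers stood apart. The inner markers summed to 2611 to 3965 CPM in P1 IHCs and 23.6 to 138 CPM in P1 OHCs, and at P7 to 4506 to 4558 CPM and 643 to 901 CPM. The outer markers summed to 704 to 711 CPM in P7 IHCs and 13129 to 13324 CPM in P7 OHCs. At P7 the list of SC genes summed to 700 to 821 CPM in IHCs and 1159 to 1231 CPM in OHCs. The list of stress genes summed to 1383 to 3543 CPM in P7 IHCs and 3548 to 6350 CPM in P7 OHCs. The part of either list in the P7 differences was not tested.

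Xirp2 was higher in IHCs than in OHCs of the same library in all 9 libraries with both types. At E16 it was 140.3, 145 and 64.6 CPM in IHCs and 41.2, 0 and 5.37 CPM in OHCs. At P1 it was 257, 452, 233 and 222 CPM in IHCs and 172, 181, 133 and 159 CPM in OHCs, and at P7 321 and 384 CPM and 53.2 and 32.8 CPM. The ranges of the types did not overlap at any of these ages. The 66 E16 OHCs held 2 Xirp2 UMIs in all, against 34 in the 73 E16 IHCs. The E16 OHC levels thus lie near the floor, and the E16 difference rests on few UMIs. Xirp2 was higher in IHCs by 2.60 ± 0.40 (SE, adjusted p = 0.00349) at E16 and 2.80 ± 0.48 (SE, adjusted p = 0.00786) at P7, and at P1 the difference was 0.76 ± 0.34 (SE, adjusted p = 0.621), with an interval of 0.02 to 1.51. The P7 call rests on both libraries: it was 3.20 (adjusted p = 0.122) without replicate 4 and 2.39 (adjusted p = 0.393) without replicate 5. The E16 call was lost when the E16 libraries were fitted on their own, at an adjusted p of 0.26.

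Grxcr1 did not keep 1 order. It was 1156, 985 and 956 CPM in IHCs and 834, 818 and 847 CPM in OHCs at E16, 499, 425, 465 and 55.6 CPM and 639, 479, 549 and 105 CPM at P1, and 246 and 227 CPM and 103 and 70.0 CPM at P7. IHCs were higher in 3 of 3 libraries at E16, lower in 4 of 4 at P1 and higher in 2 of 2 at P7. The differences were 0.30 ± 0.18 (SE, adjusted p = 0.316) at E16, -0.39 ± 0.15 (SE, adjusted p = 0.429) at P1 and 1.37 ± 0.22 (SE, adjusted p = 0.00423) at P7. The change between P1 and P7 was 1.76 ± 0.27 (SE, adjusted p = 0.0093) and passed the threshold, as 0.690% of all genes did, and it was the 1 change of 9 among the core genes. For the change between E16 and P1 limma found 0 of 9 past the threshold (0.120% of all genes), and 5 at an unadjusted p under 0.05, with -0.69 ± 0.23 (SE, adjusted p = 0.24) for Grxcr1 and -1.83 ± 0.52 (SE, adjusted p = 0.185) for Xirp2. The change between P1 and P7 missed the threshold without P7 replicate 4, at 1.96 (adjusted p = 0.0901), and without replicate 5, at 1.57 (adjusted p = 0.237). The P7 difference was lost in the same way, at 1.57 (adjusted p = 0.0673) and 1.17 (adjusted p = 0.238). Without the library block both were lost as well, at adjusted p values of 0.887 for the P7 difference and 1 for the change.

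**Figure D3:**
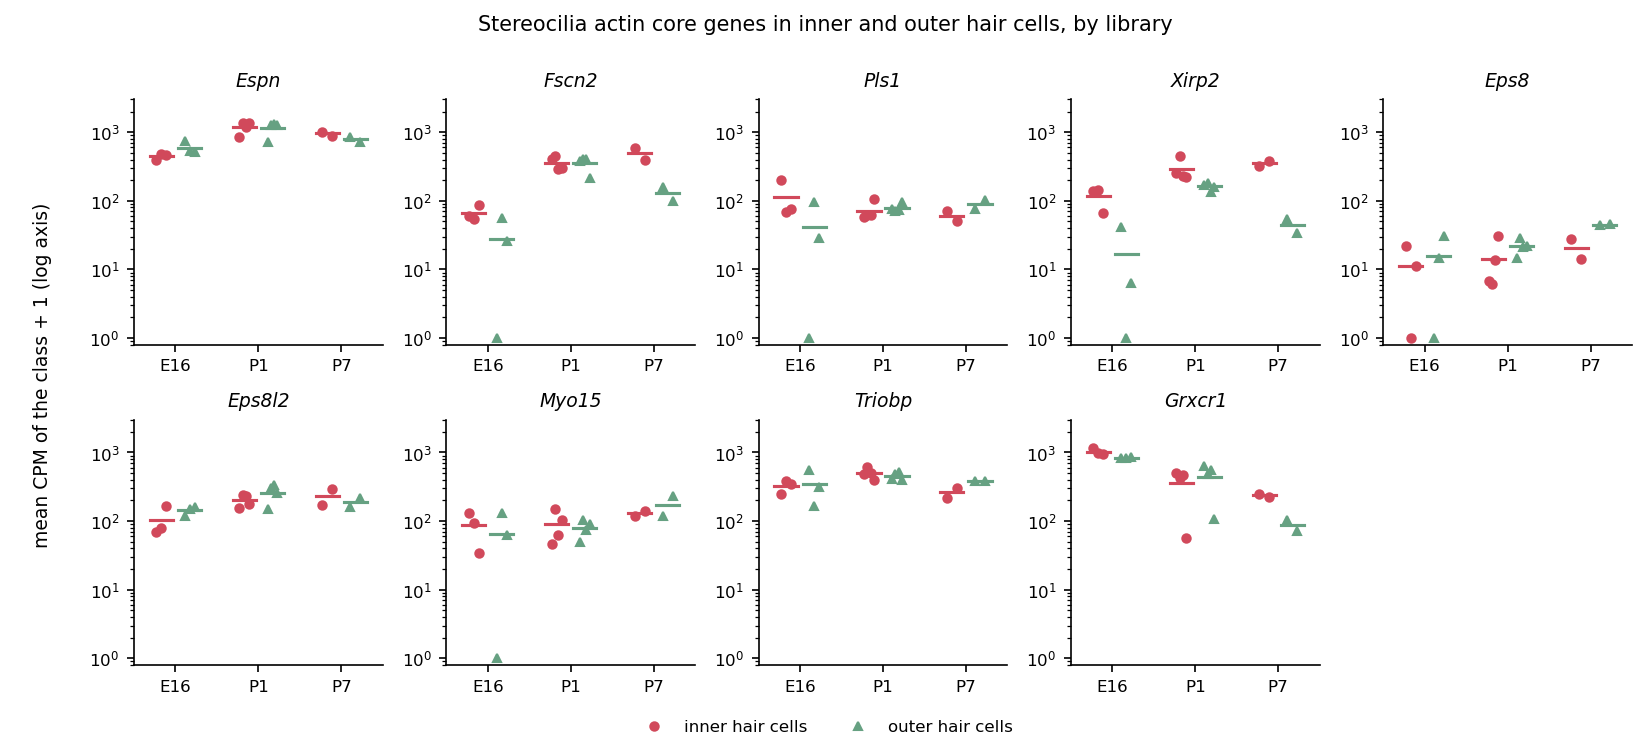
Mean level in IHCs and OHCs of each of the 9 genes tested between them (all but Fscn1), as mean CPM + 1 on a log axis. There is 1 point for each library at E16, P1 and P7 and a bar for the mean. E14, where no OHC was found, is not drawn. At P7, with 2 libraries of each type, the IHCs lie above the OHCs for Xirp2, Fscn2, Grxcr1 and Espn. The OHCs lie above the IHCs for Eps8, Pls1 and Triobp. The P1 libraries of both types lie close together for most genes.

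Fscn2 was 584 and 394 CPM in P7 IHCs and 159 and 97.6 CPM in P7 OHCs, after 402, 443, 286 and 298 CPM and 382, 402, 403 and 215 CPM at P1. The types overlapped at P1 and did not at P7. Espn, Grxcr1 and Xirp2 also had the IHCs of P7 above its OHCs without overlap, and Eps8, Pls1 and Triobp had the OHCs above. With 2 libraries of each type, the share of all genes without overlap was not counted. The P7 difference of 1.86 ± 0.50 (SE, adjusted p = 0.0907), with an interval of 0.78 to 2.94, missed the threshold, and it passed it without E16 replicate 1 or 2, at adjusted p values of 0.000623 and 0.0129. Espn, Triobp, Eps8l2, Eps8, Myo15 and Pls1 passed the threshold at neither P1 nor P7. The Espn difference was 0.09 ± 0.13 at P1 and 0.29 ± 0.19 at P7, with intervals of -0.20 to 0.37 and -0.12 to 0.69, the narrowest of the 9 genes at P1. The P7 difference was -0.56 ± 0.38 for Triobp and 0.28 ± 0.30 for Eps8l2, while Eps8, Myo15 and Pls1 had intervals at P7 that span more than 2 log2 units.

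Within IHCs 6 of the 10 genes changed between E14 and E16 (4.81% of 9109 genes), but that comparison rests on 5 and 8 IHCs at E14. Fscn2, Myo15, Espn, Triobp and Xirp2 were higher at E16, Triobp by 1.88 ± 0.36 (SE, adjusted p = 0.00293) and Xirp2 by 3.59 ± 0.46 (SE, adjusted p = 4.5e-05) with the E14 value entered as 0, and Fscn1 was lower, with a log2 difference of -3.07 ± 0.69 (SE, adjusted p = 0.0109). With 9 E14 IHCs assumed to hold 1 UMI each, the Xirp2 change was 0.45 (adjusted p = 0.569). With columns weighted by their cell numbers, Xirp2 was the 1 change of the 6 still past the threshold, and the other 5 had adjusted p values of 0.14 to 0.47. Without E14 replicate 1 the changes of Espn, Fscn1 and Myo15 were lost, and without E14 replicate 2 that of Fscn2. The change of Myo15 was also lost without E16 replicate 1 or 2. Between E16 and P1 3 changed in IHCs (4.14%): Espn by 1.40 ± 0.26 (SE, adjusted p = 0.00207), Fscn2 by 2.27 ± 0.38 (SE, adjusted p = 0.000952) and Grxcr1 by -1.85 ± 0.51 (SE, adjusted p = 0.041). The Grxcr1 fall was -1.14 (adjusted p = 0.0876) without P1 replicate 4 and missed the threshold without any 1 E16 or P7 library. With the other settings counted, it was lost in 11 of 22 alternatives, at adjusted p values of up to 0.188. Between P1 and P7 limma found 0 of 10 past the threshold in IHCs (2.03%), and 1, Triobp, at an unadjusted p under 0.05.

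Within OHCs 3 of 9 genes changed between E16 and P1 (10.4% of 8978 genes): Fscn2 rose by 3.63 ± 0.54 (SE, adjusted p = 0.00187), Xirp2 by 3.10 ± 0.52 (SE, adjusted p = 0.00414) and Espn by 0.91 ± 0.27 (SE, adjusted p = 0.0457). All genes together shifted by a median of 0.35 at that step. The 66 E16 OHCs held 2 Xirp2 and 8 Fscn2 UMIs in all, so the rises of both genes start near the floor. The Espn rise missed the threshold without E16 replicate 2 or 3, P1 replicate 2, 3 or 4, or either P7 library, at values of 0.82 to 0.91. With the other settings counted, it was lost in 13 of 22 alternatives, at adjusted p values of up to 0.191. Between P1 and P7 1 gene changed (6.32%), Grxcr1, which fell, with a log2 change of -1.99 ± 0.55 (SE, adjusted p = 0.0474). Its P1 libraries held 639, 479, 549 and 105 CPM and its P7 libraries 103 and 70.0 CPM, and P1 replicate 4 was the nearest to the P7 values. Without that library the fall was -2.56 (adjusted p = 0.000533). The call was lost in 12 of 22 alternatives. With the replicate number as a block the change was -0.03 (adjusted p = 1), and a pseudocount of 1 CPM, no filter on low values, CPM of summed UMIs and median-of-ratios scaling gave -2.09 to -1.80, all short of the threshold. It was also lost without either P7 library, at -2.24 (adjusted p = 0.199) and -1.74 (adjusted p = 0.4), without P1 replicate 1, 2 or 3, at values of -1.87 to -1.73, and without E16 replicate 2 or 3, at -1.99.

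Outside HCs, 6 of the core genes were high enough to compare between SC-like classes, and Fscn1 was the one that differed at every age. The classes were pillar or Deiters-like cells (2794 cells, at least 2 of Prox1, Fgfr3, Emid1, Hes5, Npy and Prss23) and cells like those of Kölliker's organ (KO) and the interdental region, called KO-like here (13255 cells, at least 2 of Epyc, Calb1, Crabp1, Fgf10 and Otoa). Of the 6 genes, 4 differed at E14 (14.9% of 8749 genes), 3 at E16 (27.3%), 5 at P1 (22.7%) and 1 at P7 (15.9%).

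Fscn1 was 179.7 and 145 CPM in pillar or Deiters-like cells at E14, 129, 112 and 173 CPM at E16, 48.1, 72.2, 68.2 and 70.1 CPM at P1 and 196 and 117 CPM at P7. In KO-like cells it was 5.49 to 26.2 CPM over all libraries, below every pillar or Deiters-like value. Fscn1 was higher in pillar or Deiters-like cells by 3.15 ± 0.23 (SE, adjusted p = 1.61e-08) at E14, 2.62 ± 0.18 (SE, adjusted p = 5.53e-09) at E16, 1.68 ± 0.16 (SE, adjusted p = 2.4e-07) at P1 and 2.32 ± 0.23 (SE, adjusted p = 8.65e-07) at P7. At P7 the highest level was in mesenchyme-like cells, at 365 and 290.4 CPM, and glia-like cells held 139 and 189 CPM, so the non-HC level of that age mixes several classes.

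Espn outside HCs was found in KO-like cells, at 65.2 and 68.1 CPM at E14, 41.1, 68.3 and 64.2 CPM at E16, 46.6, 90.9, 88.1 and 53.0 CPM at P1 and 4.02 and 5.85 CPM at P7. In pillar or Deiters-like cells it was 19 and 10.8 CPM at E14, 25.8, 41.9 and 22.2 CPM at E16, 8.60, 15.6, 17.6 and 8.79 CPM at P1 and 3.20 and 4.14 CPM at P7. KO-like cells were higher within each library. Espn was lower in pillar or Deiters-like cells, with a log2 difference of -1.64 ± 0.22 (SE, adjusted p = 2.6e-05) at E14, -0.77 ± 0.18 (SE, adjusted p = 0.00332) at E16 and -1.79 ± 0.15 (SE, adjusted p = 6.7e-08) at P1, and the P7 difference was -0.13 ± 0.22 (SE, adjusted p = 0.756). Without E16 replicate 3 the E16 difference was -0.55 (adjusted p = 0.0513). The 12 HC markers summed to 86.7 to 251 CPM in KO-like cells and to 132 to 261 CPM in pillar or Deiters-like cells. The part of HC RNA in these Espn levels was not tested.

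**Figure D4:**
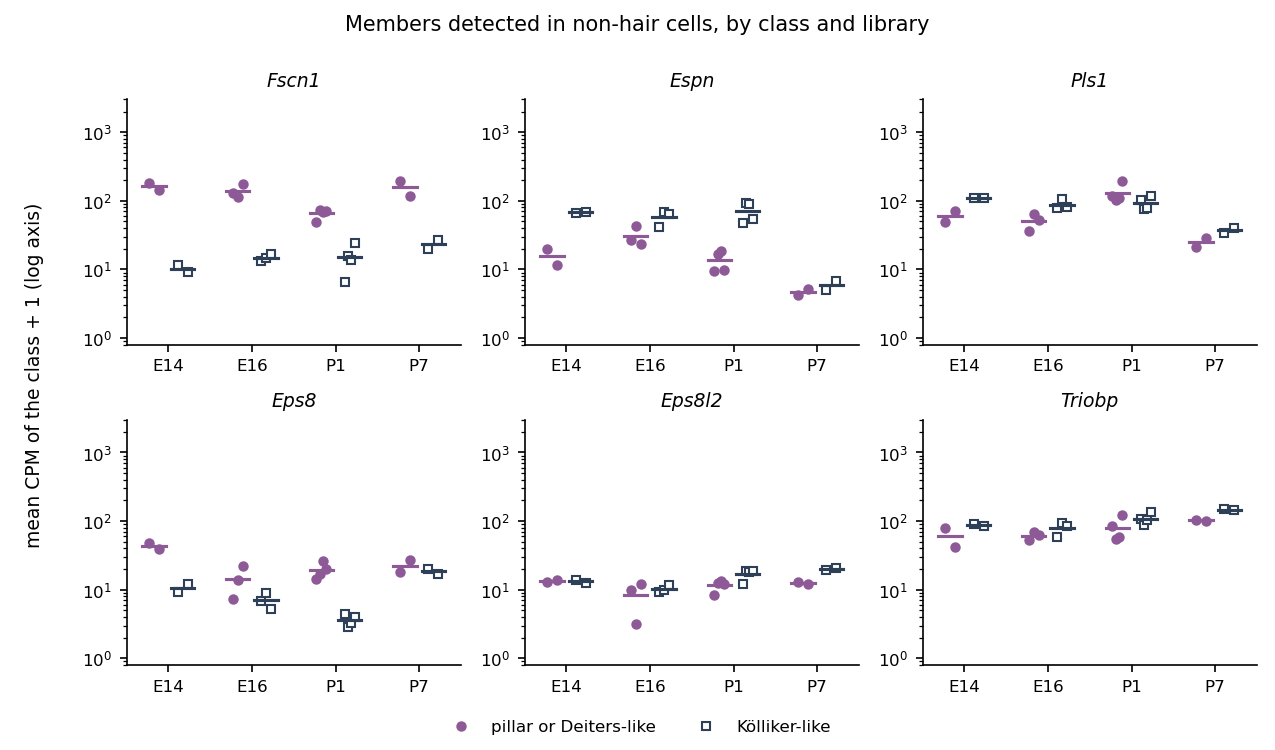
Mean level of the 6 core genes tested outside HCs in pillar or Deiters-like and KO-like cells, as mean CPM + 1 on a log axis, with 1 point for each library by age and a bar for the mean. Fscn1 is higher in pillar or Deiters-like cells in all 11 libraries, and Espn is higher in KO-like cells and drops in both classes at P7.

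Pls1 was lower in pillar or Deiters-like than in KO-like cells, with a log2 difference of -0.81 ± 0.17 (SE, adjusted p = 0.00303) at E14 and -0.72 ± 0.14 (SE, adjusted p = 0.000876) at E16, and higher by 0.42 ± 0.12 (SE, adjusted p = 0.017) at P1. Its levels were 34.9, 63.3 and 51.1 CPM against 78.5, 104 and 79.1 CPM at E16 and 116, 101, 107 and 196 CPM against 103, 74.6, 76.6 and 116 CPM at P1. The E14 difference was lost without E14 replicate 1, at -0.58 (adjusted p = 0.159), and the P1 difference without replicate 2, 3 or 4, at values of 0.33 to 0.43. Eps8 was higher in pillar or Deiters-like cells by 1.42 ± 0.26 (SE, adjusted p = 0.00081) at E14 and 1.15 ± 0.18 (SE, adjusted p = 0.000121) at P1, and at E16 and P7 the differences were 0.51 ± 0.21 and 0.18 ± 0.26. The E14 difference was 1.21 (adjusted p = 0.0605) without E14 replicate 1. Triobp was lower, with a log2 difference of -0.44 ± 0.13 (SE, adjusted p = 0.017) at P1, which was lost without P1 replicate 2 or 3. Eps8l2 differed at no age, with differences of -0.44 to 0.01.

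The wider group of stereocilia genes, a list of 30 with actins, crosslinkers, tip proteins and proteins that turn actin over, held genes of both directions. Of the 28 tested between HCs and non-HCs, 8 were higher and 1 lower in HCs at E14, 17 higher and 3 lower at E16, 17 higher and 6 lower at P1, and 15 higher and 8 lower at P7. Of all genes, 10.3% and 18.1%, 18.6% and 18.9%, 34.3% and 26.1%, and 29.2% and 25.7% were higher and lower at these ages, so the number lower at P7 was near that background. The median difference was 0.23, 0.70, 1.27 and 1.30 in that order. The highest at P1 and P7 were Espnl, Grxcr2 and Elmod1. Espnl, the espin-like relative of Espn, was higher by 4.05 ± 0.26 (SE, adjusted p = 4.45e-10) at P1 and 5.18 ± 0.37 (SE, adjusted p = 3.78e-09) at P7, and Grxcr2, the relative of Grxcr1, by 4.12 ± 0.16 (SE, adjusted p = 6.49e-13) and 3.73 ± 0.23 (SE, adjusted p = 4.56e-10). The lowest at P7 were Tmod1, which caps the slow-growing end of actin filaments, at -2.25 ± 0.14 (SE, adjusted p = 9.06e-10), Ezr, an actin-membrane linker, at -2.15 ± 0.18 (SE, adjusted p = 1.8e-08), and Dstn, an actin-severing protein, at -1.97 ± 0.15 (SE, adjusted p = 6.24e-09).

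Of the 8 closest relatives of the core genes, 4 passed the filter on low values. Espnl was 51.5 and 3.54 CPM in HCs at E14 and 350.5 and 381 CPM at P7, with at most 1.52 CPM in non-HCs. Grxcr2 is not listed at E14 and was 88.5, 56.4 and 85.3 CPM in HCs at E16. Pls3, the plastin of many tissues, was lower in HCs at every age. Its log2 difference was -1.30 ± 0.24 (SE, adjusted p = 0.000649) at E14 and -1.36 ± 0.20 at E16, then -2.0 ± 0.17 at P1 and -1.74 ± 0.24 at P7, with 22.6 to 64.1 CPM in non-HCs and at most 10.1 CPM in HCs. Lcp1, the leukocyte plastin, was lower in HCs, with a log2 difference of -1.33 ± 0.23 (SE, adjusted p = 0.000421) at E14, -0.89 ± 0.19 at E16 and -1.71 ± 0.17 at P1. At P7 it was 13.6 and 19.8 CPM in HCs and 12.2 and 12.2 CPM in non-HCs, with a difference of 0.26 ± 0.23 (SE, adjusted p = 0.371). The blood and immune markers summed to 36.8 to 1359.5 CPM in E16 HCs, and no HC library of another age exceeded 10.3 CPM. Eps8l1 was low, with 2.30 to 12.7 CPM in non-HCs, and Fscn3 and Xirp1 reached at most 1.19 CPM in HCs or non-HCs. Eps8l3 was not found in the tables.

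Over the 20 IHC and OHC columns (11 of IHCs and 9 of OHCs), the genes whose level followed that of a core gene most closely were taken by 1 measure, Pearson's r of log2(CPM + 10) over 6913 genes with a mean of 20 CPM or more. This is a description, since the columns share libraries, depth and the course of age. Espn was followed most closely by Cdk5rap2 (0.92) and Gnptg (0.91). Triobp was followed by the same pair, at 0.88 for Gnptg and 0.84 for Cdk5rap2. Xirp2 was followed by AI413582 (0.91) and by Otof (0.89), the otoferlin gene of the IHC synapse, and Myo15 by Nptn (0.90). For Grxcr1 the closest was Rps20 (0.88), a gene of the ribosome, and for Fscn1 it was Ier5 (0.846), an immediate early gene, with Klf6 (0.845) next. The closest to Eps8 was Esrra (0.84), to Eps8l2 Ppfibp2 (0.91) and to Pls1 Bclaf1 (0.90).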

How the data were processed

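The deposited tables hold, per gene and cell, ln(1 + 10000 × share of the UMIs of that cell). The authors made these natural log values by aligning reads to mm10 with Cell Ranger 2.1.1 and filtering and normalizing in Seurat 2.0. Genes in at least 10 cells were kept, and which cells were counted is not stated. Cells were filtered on genes, UMIs, mitochondrial and stress genes. Scaling and CCA were used by the authors for clustering and left these values as they are. The series text gives over 27000 cells, and the tables hold 30634. The 10 genes, the markers and the lists were chosen with earlier results of these data known, and all 10 genes are named wherever they were tested.

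Values were transformed back to CPM per cell and averaged per class and library, for classes with at least 5 cells. UMIs worked back from the values were whole within 2% for all values above 0. Class means, log2(CPM + 10), were fitted with limma 3.58.1 (R 4.3.3, mean trend), since they are not counts. The fits cover HCs against non-HCs, IHCs against OHCs, ages within a class, and pillar or Deiters-like against KO-like cells. A gene not listed in a table entered as 0. The scripts were tested on simulated data. No doublet caller was run. Cells between the gates and, as an alternative, HCs high in SC genes were left out. Alternatives changed the pseudocount, filter, gates, scaling, weights, block and libraries. Replicate numbers did not pair the libraries: same-numbered libraries of different ages deviated together with correlations of -0.125 to 0.077 over 8 pairs. Python 3.11.15 was used for the levels. The gene closest to Fscn2 in level is not reported here.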

Additional observations from a re-analysis of the deposited data

Results flagged for a closer look

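In the 4 P1 libraries, 7 of 40 groups of gene and class held a library that stood out. Its gap to its nearest neighbor took up more of the whole range than Dixon's 95% limit for 4 samples allows. Chance gives about 1 in 20 independent groups. These groups are not independent, since the HCs include the IHCs and OHCs and all groups share the 4 libraries. The 7 can therefore not be set against that rate. P1 replicate 1 was low for Espn in HCs (725 CPM) and OHCs (713 CPM) and for Eps8l2 in non-HCs (10.3 CPM). P1 replicate 4 was low for Grxcr1 in IHCs (55.6 CPM) and for Fscn2 in OHCs (215 CPM) and high for Pls1 in IHCs (104 CPM). P1 replicate 2 was high for Xirp2 in IHCs (452 CPM). Replicate 4 is the library that stood most apart from the other P1 libraries over all genes, with replicate 1 next.

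The difference between HCs and non-HCs changed between ages for several genes, by a test of the change itself (limma, log2 scale). It changed for 5 of the 10 genes from E14 to E16 (13.7% of all genes) and for 4 from E16 to P1 (17.2%). From P1 to P7 it changed for 3 (26.6%), which is near the share of all genes. Between E14 and E16 the difference grew for Espn by 0.88 (adjusted p = 0.0336), which was lost in 9 of 24 alternatives. It also grew for Fscn2 by 2.17 (0.000276), Myo15 by 2.08 (0.0028) and Xirp2 by 2.50 (0.000126, with Xirp2 at 0 at E14), and for Fscn1 it changed by -1.70 (0.00634). Between E16 and P1 it grew for Espn by 0.96 (0.00548), Fscn2 by 2.63 (3.73e-06) and Xirp2 by 1.69 (0.000258), and for Grxcr1 it changed by -1.30 (0.0436), which was lost in 12 of 24 alternatives and was -0.73 (0.0516) without P1 replicate 4. Between P1 and P7 it grew for Espn by 1.39 (0.000426) and Pls1 by 1.84 (6.8e-05). For Triobp it changed by -0.77 (0.0362), a change lost in 8 of 24 alternatives. The difference between IHCs and OHCs changed between P1 and P7 for Grxcr1 by 1.76 (0.0093), as it did for 0.690% of all genes. This change was lost in 3 of 24 alternatives: without either P7 library and without the library block. The changes of Fscn1 and Xirp2 from E14 to E16 and those of Espn at the later steps were each lost in 1 alternative. The values in parentheses are adjusted p values.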

How the results depend on the processing

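Each value of a core gene was recomputed under those of 28 settings that applied to it, 4790 values in all. Some settings were run for 1 kind of comparison or 1 gene only, and each call had 21 to 25 of them. Of 1949 values past the threshold as reported, 1800 stayed past it, 149 did not, and 0 changed sign; 105 of the other 2841 came past it, and 75 changed sign while past it in neither. Of the 84 calls, 50 were lost under no setting: 34 of 43 for HCs against non-HCs and its changes, 0 of 4 for IHCs against OHCs, 6 of 11 for HCs between ages, 1 of 9 for IHCs, 2 of 4 for OHCs and 7 of 13 for pillar or Deiters-like against KO-like cells. The cause was not tested.

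Counts of core genes past the threshold that moved by more than 1.5 times were these. Without the library block, 2 instead of 4 differences between HCs and non-HCs changed from E16 to P1, 1 instead of 2 differed between IHCs and OHCs at P7, 0 instead of 1 changed there from P1 to P7, and between pillar or Deiters-like and KO-like cells 1 instead of 3 differed at E16 and 3 instead of 5 at P1. With only the libraries of the ages compared, counts for IHCs against OHCs were 0 (1 as reported) at E16, 2 (0) at P1, 4 (2) at P7 and 4 (1) for the change from P1 to P7, with 4 (1) for OHCs from P1 to P7 and 2 (1) for pillar or Deiters-like cells at P7. A pseudocount of 1 CPM gave 1 (2) for IHCs against OHCs at P7, 1 (3) for IHCs from E16 to P1 and 0 (1) for OHCs from P1 to P7. A pseudocount of 50 CPM gave 2 (1) for the change of the IHC and OHC difference, 1 (0) for HCs and 2 (1) for OHCs from P1 to P7, and 2 (1) for pillar or Deiters-like cells at P7. Weights from cell numbers gave 3 (1) for that change, 1 (6) for IHCs from E14 to E16 and 3 (1) for OHCs from P1 to P7. A minimum of 15 cells, and using only cells with no UMI of the other type, each gave 3 (1) for that change. With no filter on low values, 3 (6) changed in HCs from E16 to P1 and 0 (1) in OHCs from P1 to P7. CPM of summed UMIs and median-of-ratios scaling each gave 0 (1) for OHCs from P1 to P7 and 2 (1) for pillar or Deiters-like cells at P7. The numbers of the replicates did not pair the libraries, and with the replicate block the count for OHCs from P1 to P7 was 0 (1).

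Leaving out 1 library gave ranges of 4 to 6, 8 to 9, 9 to 10 and 9 to 10 for HCs against non-HCs at E14, E16, P1 and P7, and 4 to 6, 3 to 5 and 2 to 4 for its changes. For IHCs against OHCs the ranges were 1 to 3 at E16 (3 without E16 replicate 2), 0 to 0 at P1, 0 to 3 at P7 (0 without either P7 library, 3 without E16 replicate 1) and 0 to 3 for the change (0 and 3 likewise). They were 4 to 6, 3 to 7 and 0 to 2 for HCs between ages (3 from E16 to P1 without E16 replicate 1 or 2, 7 without E14 replicate 1; 2 from P1 to P7 without E14 replicate 1, 1 without E14 replicate 2 or P1 replicate 4), 3 to 6, 2 to 4 and 0 to 0 for IHCs (3 from E14 to E16 without E14 replicate 1), and 2 to 3 and 0 to 3 for OHCs (0 from P1 to P7 without either P7 library, E16 replicate 2 or 3 or P1 replicate 1, 2 or 3, and 3 without E16 replicate 1). For pillar or Deiters-like cells they were 3 to 5, 2 to 4, 3 to 5 and 1 to 3 (3 at P1 without P1 replicate 2 or 3, 3 at P7 without E16 replicate 1).

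Chosen after seeing the data, Xirp2 set at E14 to what 9 HCs with 1 UMI each would give stood 1.97 above the non-HCs. With all UMIs of each cell, the shares of P1 HCs were 97.92% for Espn, 73.20% for Grxcr1, 78.81% for Fscn2, 63.28% for Xirp2 and 38.88% for Myo15. Median-of-ratios scaling shifted the median of all genes by at most 0.157, in OHCs from P1 to P7, and changed the numbers of genes higher and lower from 255 and 312 to 325 and 252 there, from 751 and 530 to 882 and 396 for HCs from E14 to E16, from 65 and 120 to 92 and 101 for IHCs from P1 to P7, from 33 and 30 to 21 and 31 for the change of the IHC and OHC difference, and for pillar or Deiters-like cells from 1219 and 769 to 990 and 1000 at P1 and from 880 and 515 to 787 and 728 at P7. Of the HC types, the fewest cells were in the IHCs of E14 (13), the OHCs of E16 (66) and the IHCs of E16 (73).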
